A study of Mus musculus with 12 samples.

Results

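The genes described are the Janus kinases Jak1, Jak2, Jak3 and Tyk2, the transcription factors Stat3, Stat5a and Stat5b, and the suppressors of cytokine signalling Socs1, Socs2 and Socs3. They were chosen by gene symbol, matched to the Ensembl IDs of the deposited table through the GENCODE annotation of mm10, which gave 10 genes of the 38924 IDs listed. Their transcript levels were measured by bulk RNA-seq in 12 libraries of 3 progenitor types sorted out of marrow from female C57Bl/6J mice, an inbred laboratory strain, with 4 libraries of each type. All 3 types came from marrow depleted of cells that carry CD3e, CD11b, B220, Gr-1 or TER-119. Lymphoid-primed multipotent progenitors (LMPP) were sorted as Sca1+ cKit+ CD150- CD34+ cells with high Flk2, common lymphoid progenitors (CLP) as IL7Ra+ Flk2+ cells with low Sca1 and low cKit, and granulocyte-monocyte progenitors (GMP) as Sca1- cKit+ CD150- CD34+ FcgR+ cells. No treatment or mutation is named for any library. By their titles the libraries of a type fall into 2 batches of 2. Donor age and the amount of RNA per library remain not given in the sources used here. Separate animals behind the libraries are not stated either, so a p-value reflects the spread of these samples alone, which may be technical.

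Cytokine receptors have no kinase of their own and carry JAK kinases on their cytoplasmic tails. Binding of the cytokine brings the kinases together, they phosphorylate the receptor, and STAT factors dock there, are phosphorylated, pair up and enter the nucleus to switch on target genes. CISH and the SOCS proteins are among those targets and damp the signal at the receptor or the kinase. In marrow progenitors, the interleukin-7 receptor signals through JAK1 and JAK3 to STAT5 in lymphoid cells, and the receptor for GM-CSF signals through JAK2.

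Values are TPM, a transcript level scaled for transcript length and library total. Differences are on the log2(TPM + 1) scale, fitted with limma over all 12 libraries with the type and the batch as terms. A gene was tested where at least 4 libraries reached 1 TPM, which held for 12718 genes and for 8 of the 10 described here; Socs1 and Socs3 fell below that level. Socs2 passed through the CLP libraries, 4 of the 6 in which it reached 1 TPM, and the other 7 tested genes reached it in all 12. Called genes had a limma adjusted p under 0.05, with adjustment over all tested genes of a comparison. The 3 comparisons share libraries, since each type enters 2 of them.

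Some libraries stood apart or went against their labels. The CLP libraries of batch 2 had 8.91 and 17.0 TPM of Flt3, which encodes the Flk2 of the gate, against 138 and 146 TPM in the CLP libraries of batch 1. A list of 9 B lineage genes, Pax5 and Igll1 among them, summed to 33.9 to 119 TPM in LMPP libraries, to 4826 and 6059 TPM in the CLP libraries of batch 2, to 983 and 91.9 TPM in the CLP libraries of batch 1 and to 34.1 to 44.6 TPM in GMP libraries. Haemoglobin and other erythroid transcripts summed to 28314 TPM in LMPP batch 2 replicate 1 and to 13486 TPM in CLP batch 2 replicate 1, and transcripts of mature neutrophils to 26160 and 12076 TPM in the same libraries. A list of 8 dendritic cell genes, H2-Aa and Cd74 among them, summed to 1387 TPM in LMPP batch 2 replicate 3. In the other libraries it summed to 133 to 502 TPM. Most of the 1387 TPM came from H2-Aa, H2-Ab1, H2-Eb1 and Cd74, at 460, 312, 79.8 and 463 TPM. Siglech, Bst2, Irf8 and Itgax had 0.17, 30.2, 40.0 and 2.86 TPM there. Among LMPP libraries Siglech and Bst2 were lowest in this library and Irf8 was highest. LMPP batch 2 replicate 3 also had the highest Jak3, Stat3 and Socs3 of all libraries. The part of cells rich in H2-Aa and Cd74 was not tested. The fitted median of all tested genes was 0.17 for LMPP minus CLP, 0.24 for LMPP minus GMP and 0.09 for CLP minus GMP. Under median-ratio scaling these medians were 0.02, 0.02 and 0.01. With that scaling, 560 genes were higher and 602 lower in LMPP than in CLP, beside 920 and 356 in the deposited TPM. For LMPP against GMP it gave 1717 higher and 1869 lower genes, beside 2707 and 969, and for CLP against GMP 1523 and 1699, beside 1773 and 1267.

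Jak1 was the main JAK transcript in every library, and Jak2 came next in every library. Jak1 serves the interferon, gp130 and common gamma chain receptors. It had 87.2, 80.6, 58.4 and 63.6 TPM in the LMPP libraries, 80.9, 96.3, 43.2 and 35.04 TPM in the CLP libraries and 50.6, 47.5, 26.5 and 34.2 TPM in the GMP libraries, each time with the values of batch 2 before those of batch 1. All LMPP libraries lay above all GMP libraries, while the CLP libraries split by batch and spanned both. Jak1 was higher in LMPP than in GMP by 0.88 ± 0.17 (SE; limma adjusted p = 0.00232). In CLP it was higher than in GMP by 0.60 ± 0.17 (limma adjusted p = 0.0207), but this call ended without the CLP libraries of batch 2, where the difference was 0.30 (limma adjusted p = 0.204). Within batch 2 alone CLP minus GMP was 0.84 (limma adjusted p = 0.0201), and within batch 1 alone it was 0.36 (limma adjusted p = 0.186). It was also lost without CLP batch 2 replicate 2, without GMP batch 1 replicate 1 and without either GMP library of batch 2, with differences of 0.48 to 0.60 and limma adjusted p-values between 0.0513 and 0.0643. LMPP and CLP differed in Jak1 by 0.28 ± 0.17 (limma adjusted p = 0.298).

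Jak2, a kinase of the GM-CSF receptor, had 22.1, 18.2, 14.5 and 16.1 TPM in LMPP libraries, 20.6, 18.9, 9.14 and 8.87 TPM in CLP and 20.3, 20.9, 11.7 and 9.34 TPM in GMP. The 3 types overlapped, and within each type the libraries of batch 2 were the high ones. No comparison of types called Jak2, with differences of 0.36, 0.24 and -0.13 for LMPP minus CLP, LMPP minus GMP and CLP minus GMP and limma adjusted p-values from 0.208 to 0.638.

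Jak3 works only with receptors that contain the common gamma chain. It had 5.0, 11.8, 7.93 and 7.07 TPM in LMPP libraries, 2.40, 2.67, 4.57 and 6.83 TPM in CLP and 3.06, 2.21, 2.99 and 2.56 TPM in GMP. Every LMPP library was above every GMP library, and CLP overlapped both. Jak3 was higher in LMPP than in GMP by 1.23 ± 0.29 (SE; limma adjusted p = 0.00787). The difference was 0.84 ± 0.29 for LMPP minus CLP (limma adjusted p = 0.0840) and 0.39 ± 0.29 for CLP minus GMP (limma adjusted p = 0.354), neither of them called. Without CLP batch 1 replicate 2, LMPP minus CLP was called (1.04, limma adjusted p = 0.0403). For CLP minus GMP, Jak3 was called in batch 1 alone (0.81, limma adjusted p = 0.0492), though not with the low value filter taken over 12 libraries (limma adjusted p = 0.0560), and was -0.031 in batch 2 alone (limma adjusted p = 0.970).

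The 3′ end of Jak3 lies in the same stretch and on the same strand as Insl3, chr8:71689214-71690575 in mm10, so the split of reads between them is uncertain. Insl3, a hormone of the insulin family, had 5.51, 14.1, 9.07 and 6.90 TPM in LMPP libraries, 0.86, 0, 6.18 and 6.81 TPM in CLP and 0, 1.49, 0.56 and 2.51 TPM in GMP. All LMPP libraries were above all GMP libraries and overlapped CLP, as for Jak3, and Insl3 was higher in LMPP than in GMP by 2.29 ± 0.54 (SE; limma adjusted p = 0.00829). Its part in the Jak3 result was not tested.

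Tyk2, which pairs with Jak1 or Jak2 at interferon and interleukin-12 family receptors, had 3.22, 5.70, 5.20 and 3.41 TPM in LMPP libraries, 2.01, 1.5, 5.44 and 4.00 TPM in CLP and 5.85, 5.56, 4.10 and 4.11 TPM in GMP. The types overlapped, and the CLP libraries of batch 2 were the lowest of all 12. No comparison of types called it, at limma adjusted p-values from 0.198 to 0.744. An antisense gene, 1700084C06Rik, overlaps Tyk2 and reached at most 1.25 TPM; the sources used here do not say whether counting used strand. Jak3 exceeded Tyk2 in 4 of 4 LMPP libraries, 3 of 4 CLP libraries and 0 of 4 GMP libraries.

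**Figure D1:**
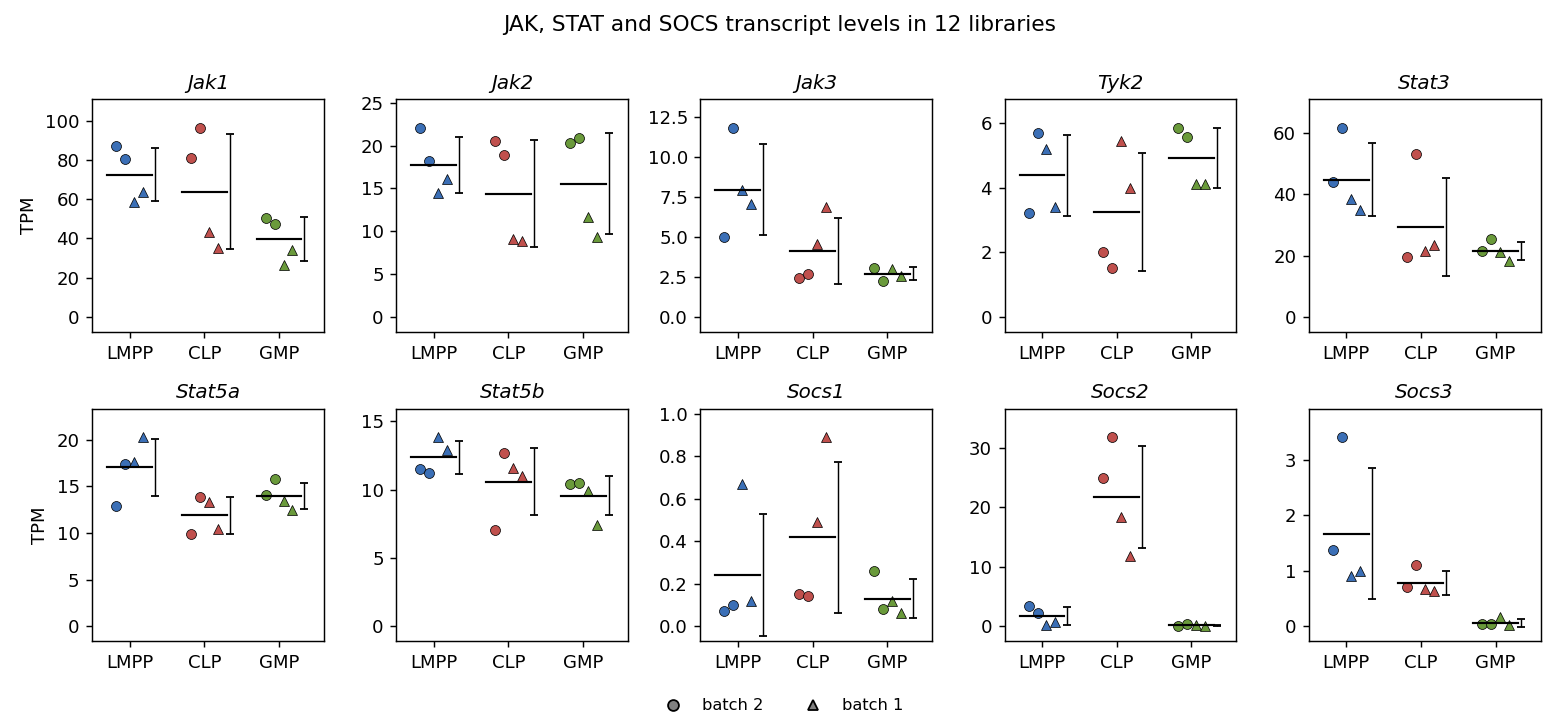
TPM of the 10 genes (y axes, each with its own range) in LMPP, CLP and GMP libraries, with circles for batch 2 and triangles for batch 1. Horizontal lines are means of 4 libraries and bars are SD; the Socs2 values of CLP lie between 11.8 and 31.8 TPM, above all others.

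The 4 JAK transcripts together came to 118, 116, 86.1 and 90.2 TPM in LMPP libraries, to 106, 119, 62.3 and 54.7 TPM in CLP and to 79.8, 76.2, 45.3 and 50.3 TPM in GMP. The batch 2 libraries were above the batch 1 libraries of their own type in all 3 types. Jak1 made up 70.5 ± 2.72% of this sum in LMPP, 72.6 ± 7.40% in CLP and 63.1 ± 3.98% in GMP (SD, n = 4 each). An exact two-sided permutation test of 4 against 4 libraries gave p = 0.629 for LMPP against CLP, 0.0571 for LMPP against GMP and 0.0571 for CLP against GMP, which adjusted over 9 share tests were 0.707, 0.129 and 0.129.

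Stat3, the factor activated by gp130 family receptors and by the G-CSF receptor, was the highest of the 3 STAT transcripts in every library. It had 44.0, 61.6, 38.4 and 34.8 TPM in LMPP libraries, 19.4, 53.2, 21.5 and 23.5 TPM in CLP and 21.4, 25.4, 21.1 and 18.2 TPM in GMP. All LMPP libraries were above all GMP libraries, and in CLP a single library, batch 2 replicate 2, stood within the LMPP range. Stat3 was higher in LMPP than in GMP by 0.997 ± 0.25 (SE; limma adjusted p = 0.0112), a call that ended under median-ratio scaling (0.74, limma adjusted p = 0.0552). LMPP minus CLP was 0.68 ± 0.25 and was not called (limma adjusted p = 0.107). Without CLP batch 2 replicate 2 it was called, at 0.96 (limma adjusted p = 0.0115), and likewise without both CLP libraries of batch 2, at 0.74 (limma adjusted p = 0.0388), in batch 1 alone, at 0.68 (limma adjusted p = 0.0377), and with array weights, at 0.77 (limma adjusted p = 0.0176). CLP minus GMP was 0.32 ± 0.25 (limma adjusted p = 0.382).

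Stat5a and Stat5b are close relatives that act below the interleukin-7 and GM-CSF receptors. Stat5a had 12.9, 17.4, 17.6 and 20.3 TPM in LMPP libraries, 9.88, 13.9, 13.3 and 10.4 TPM in CLP and 14.1, 15.8, 13.4 and 12.5 TPM in GMP. Stat5b had 11.5, 11.2, 13.8 and 12.9 TPM in LMPP libraries, 7.05, 12.7, 11.6 and 10.98 TPM in CLP and 10.4, 10.5, 9.92 and 7.42 TPM in GMP. The types overlapped in Stat5a, and in Stat5b the LMPP libraries were above the GMP libraries while CLP overlapped both. Neither gene was called in any comparison of types; the limma adjusted p-values ran from 0.112 to 0.401 for Stat5a and from 0.216 to 0.719 for Stat5b. The largest of these differences was 0.48 ± 0.18 for Stat5a in LMPP minus CLP. RSEM divides reads shared by near copies by estimate, which limits how well these 2 relatives can be told apart.

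Stat5a exceeded Stat5b in 11 of the 12 libraries. Its share of their sum was 57.7 ± 3.98% in LMPP, 53.2 ± 4.00% in CLP and 59.4 ± 2.49% in GMP (SD, n = 4 each). Exact two-sided permutation tests gave p = 0.171 for LMPP against CLP, 0.457 for LMPP against GMP and 0.0857 for CLP against GMP. Adjusted over the 9 share tests these were 0.257, 0.588 and 0.154. The last 72 bases of Stat5a and of Stat3, on opposite strands, overlap at chr11:100885098-100885169 in mm10.

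Socs2 was the gene of the 10 that differed most between types. It encodes an adaptor of a ubiquitin ligase that limits growth hormone and other JAK2 and STAT5 signals, and its gene lies at chr10:95385362-95417180 on the minus strand in mm10. Socs2 had 3.47, 2.24, 0.16 and 0.78 TPM in the LMPP libraries, 25.0, 31.8, 18.4 and 11.8 TPM in the CLP libraries and 0, 0.29, 0.17 and 0.06 TPM in the GMP libraries. Every CLP library was above every LMPP and every GMP library, and the LMPP libraries of batch 1 overlapped the GMP libraries.

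Socs2 was lower in LMPP than in CLP, with a difference of -3.20 ± 0.31 (SE; limma adjusted p = 0.000170). In CLP it was higher than in GMP by 4.25 ± 0.31 (SE; limma adjusted p = 3.64e-06), a fold of 19.1 on the TPM + 1 scale. Both calls held under every alternative in which Socs2 was tested, including each library left out in turn. LMPP minus GMP was 1.06 ± 0.31 (limma adjusted p = 0.0238). This last call was lost without either LMPP library of batch 2 and without either GMP library of batch 2, with differences of 0.85 to 1.02 and limma adjusted p-values from 0.0566 to 0.0789. In batch 2 alone the difference was 1.74 and called (limma adjusted p = 0.0343). In batch 1 alone, with the low value filter taken over 12 libraries, it was 0.37 (limma adjusted p = 0.437).

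B lineage transcripts moved with Socs2 across the CLP libraries, as their sums above show. In CLP batch 1 replicate 2 the B lineage genes summed to 91.9 TPM, of which Blnk gave 60.4 and Cd79b 23.1 TPM, while Igll1 stood at 0.13 and Pax5 at 0.81 TPM. Socs2 had 11.8 TPM in that library, above all LMPP and GMP libraries. The part of B lineage transcripts in the Socs2 differences was not tested. In bulk RNA, fewer cells of a type and less RNA per cell cannot be told apart.

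Socs3, the inhibitor of gp130 and G-CSF receptor signals, had 1.37, 3.41, 0.91 and 0.99 TPM in LMPP libraries, 0.70, 1.11, 0.67 and 0.64 TPM in CLP and 0.03, 0.03, 0.16 and 0.02 TPM in GMP. The LMPP and CLP libraries were all above the GMP libraries and overlapped each other. With no filter on low values, LMPP minus GMP was 1.25 ± 0.22 (SE; limma adjusted p = 0.00473), CLP minus GMP was 0.74 ± 0.22 (limma adjusted p = 0.0580) and LMPP minus CLP was 0.50 ± 0.22 (limma adjusted p = 0.242). Socs1, which blocks JAK kinases directly in interferon and common gamma chain signalling, stayed at 0.89 TPM or less in all 12 libraries, with overlapping types. Its values were 0.07, 0.10, 0.67 and 0.12 TPM in LMPP libraries, 0.15, 0.14, 0.49 and 0.89 TPM in CLP and 0.26, 0.08, 0.12 and 0.06 TPM in GMP.

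Of the summed TPM of Socs1, Socs2 and Socs3, Socs2 made up 40.0 ± 25.1% in LMPP, 93.9 ± 3.76% in CLP and 38.3 ± 29.8% in GMP (SD, n = 4 each). It was the highest of the 3 in 1 of 4 LMPP libraries, 4 of 4 CLP libraries and 2 of 4 GMP libraries. For LMPP against CLP and for CLP against GMP the exact two-sided permutation test gave p = 0.0286, the smallest that 4 against 4 libraries allow, and 0.129 after adjustment over the 9 share tests. LMPP against GMP gave an exact p of 0.914. The GMP shares rest on sums under 1 TPM.

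**Figure D2:**
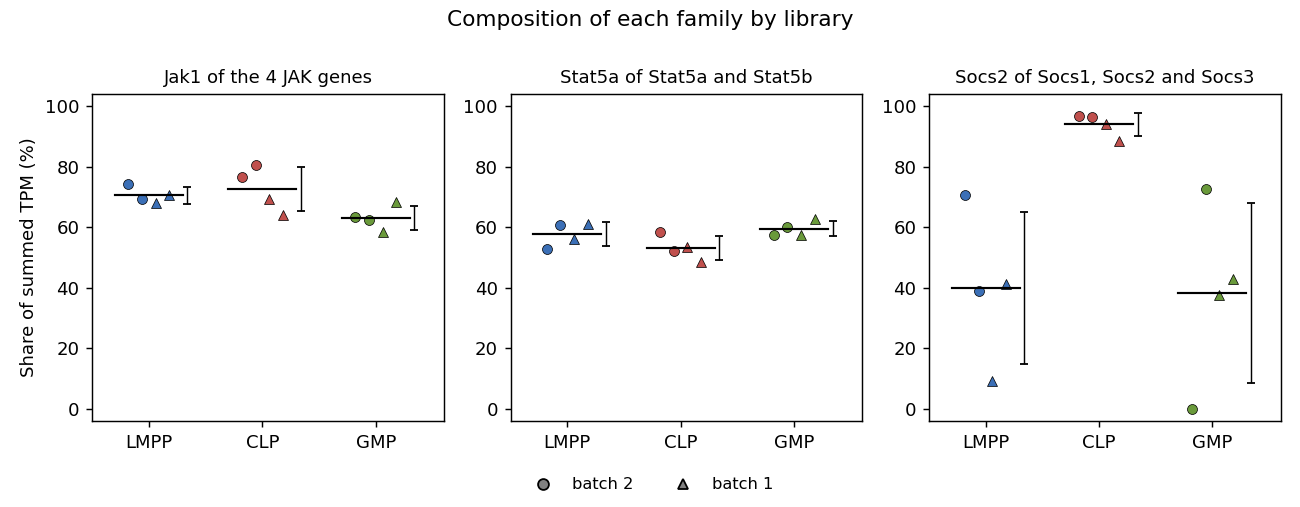
Share of the summed TPM (y axis, %) taken by Jak1 among the 4 JAK genes, by Stat5a of Stat5a and Stat5b, and by Socs2 among Socs1, Socs2 and Socs3, in LMPP, CLP and GMP libraries. Lines are means and bars SD of 4 libraries; the Socs2 share is 88.5% or more in each CLP library and spreads from 0 to 72.5% in GMP.

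Counted over the 8 tested genes, LMPP minus CLP called 1, Socs2 as lower, against 10% of all tested genes called in either direction, 7.23% higher and 2.8% lower. LMPP minus GMP called Jak1, Jak3, Stat3 and Socs2 as higher, 4 of 8, against 28.9% of all tested genes, 21.3% higher and 7.62% lower. CLP minus GMP called Jak1 and Socs2 as higher, 2 of 8, against 23.9% of all tested genes, 13.9% higher and 9.96% lower. Socs2, counted in each comparison, passed the filter through the CLP libraries, where it was highest. The counts of LMPP minus CLP and CLP minus GMP therefore depend in part on the filter. The median differences of the 8 genes were 0.39, 0.61 and 0.22 in that order of comparisons, beside 0.17, 0.24 and 0.09 over all tested genes.

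**Figure D3:**
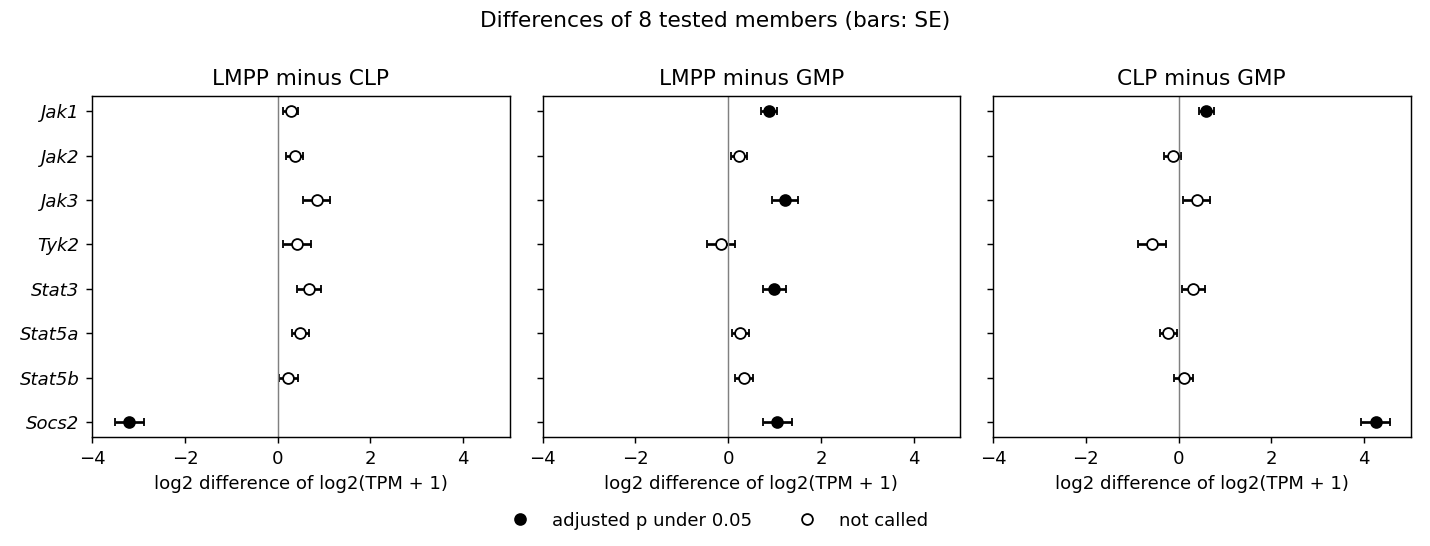
Differences of log2(TPM + 1) with SE (x axis) for the 8 tested genes in the 3 comparisons of types. Filled points have a limma adjusted p under 0.05; Socs2 stands at -3.20, 1.06 and 4.25, and all other genes lie between -0.57 and 1.23.

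Jak1 and Jak2 were called between batches in CLP and in GMP, Tyk2 in CLP alone, and no kinase in LMPP. In CLP, batch 2 against batch 1, Jak1 was higher by 1.16 ± 0.17 (SE; limma adjusted p = 0.000888) and Jak2 by 1.05 ± 0.19 (limma adjusted p = 0.00269). Tyk2 was lower, with a difference of -1.05 ± 0.32 (limma adjusted p = 0.0284). These were 3 of 8 called, against 32% of all tested genes, 21.3% higher and 10.7% lower. The Tyk2 call was lost without CLP batch 1 replicate 1, CLP batch 1 replicate 2 or CLP batch 2 replicate 2, with differences of -0.87, -1.23 and -0.91 and limma adjusted p-values of 0.148, 0.0608 and 0.0903. Stat3 was not called at 0.50 (limma adjusted p = 0.327), but reached 1.204 (limma adjusted p = 0.00328) without CLP batch 2 replicate 1. Jak3 was not called at -0.90 (limma adjusted p = 0.0844), but was called under median-ratio scaling at -1.06 (limma adjusted p = 0.0449) and, at -0.90, without either LMPP library of batch 2 (limma adjusted p = 0.0323 and 0.0334). Gate and B lineage transcripts moved between the same CLP libraries, and their part in these differences was not tested.

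In GMP, batch 2 against batch 1, Jak1 was higher by 0.68 (limma adjusted p = 0.0389) and Jak2 by 0.91 (limma adjusted p = 0.0191), 2 of 8 called against 8.22% of all tested genes, 6.16% higher. In LMPP limma called 0 of 8, against 4.61% of all tested genes, while 2 had an unadjusted p under 0.05. These were Jak1 at 0.45 (limma adjusted p = 0.167) and Socs2 at 1.41 (limma adjusted p = 0.0516). Whether a difference between types itself differed between batches was tested as an interaction, and limma called 0 of 8 genes in each of the 3 comparisons. The background was 8.58% for LMPP minus CLP, 0.0157% for LMPP minus GMP and 5.48% for CLP minus GMP, and the unadjusted p was under 0.05 for 3, 1 and 1 of the 8 genes.

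Around these genes, 12 lists of pathway genes name 80 further genes, of which 69 were tested. LMPP minus CLP called 13 of them, 9 higher and 4 lower, which is 18.8% beside 10% of all tested genes. LMPP minus GMP called 30, 23 higher and 7 lower (43.5% beside 28.9%), and CLP minus GMP called 31, 20 higher and 11 lower (44.9% beside 23.9%). Members of these lists include Il7r, a gene of the CLP gate, whose differences the sort itself can set. Ptprc, the gene behind B220, is also a member, and the B220 depletion was common to every type. Calls of these further genes come from the main fit alone and were not checked under other settings.

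Of the 5 other SOCS family genes tested, Cish and Socs5 were called. Limma called 2 in LMPP minus CLP, 2 in LMPP minus GMP and 1 in CLP minus GMP. The shares over all tested genes were 10%, 28.9% and 23.9% in that order. Cish, a STAT5 target that blocks STAT5 docking at the receptor, had 2.07, 1.72, 1.27 and 2.29 TPM in LMPP libraries, 3.30, 10.8, 4.74 and 4.31 TPM in CLP and 0.43, 0.57, 0.31 and 0.49 TPM in GMP. The 3 types did not overlap, with CLP highest and GMP lowest. Cish passed the filter through the 8 libraries of LMPP and CLP. Cish was lower in LMPP than in CLP, with a difference of -1.16 (limma adjusted p = 0.0309). Its difference was 0.96 for LMPP minus GMP (limma adjusted p = 0.0306) and 2.12 for CLP minus GMP (limma adjusted p = 0.000370). Socs5 had 6.25, 9.25, 6.87 and 7.52 TPM in LMPP libraries, 1.24, 4.38, 4.15 and 4.28 TPM in CLP and 1.84, 2.05, 1.62 and 1.78 TPM in GMP. It was higher in LMPP than in CLP by 0.98 (limma adjusted p = 0.0475) and than in GMP by 1.58 (limma adjusted p = 0.00177).

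STAT dimers bind a palindrome that can be written TTCNNNGAA, which reads the same on both strands. It was searched in the RefSeq promoter table (GRCm38.p6), 250 bases before to 50 after each start; 9 of the 10 genes have a promoter there, and Socs2 was not matched. Of the 11 promoters of those 9 genes, only that of Socs3 held it, while the Cish promoter held it 2 times. Over all 32851 promoters in the table, 8.3% held at least 1 match and 0.457% at least 2. The Cish and Socs3 promoters are shown because both genes belong to the feedback group and hold the letters, chr9:107296409-107296708 on the plus strand and chr11:117969317-117969616 on the minus strand. Capitals mark the matches, which in Cish begin at base 1 and base 12 from the RefSeq start and in Socs3 154 bases before it. In the GENCODE annotation Socs3 spans chr11:117966079-117970047 on the minus strand. The whole Socs3 stretch shown, with its match, lies inside that gene.
Cish: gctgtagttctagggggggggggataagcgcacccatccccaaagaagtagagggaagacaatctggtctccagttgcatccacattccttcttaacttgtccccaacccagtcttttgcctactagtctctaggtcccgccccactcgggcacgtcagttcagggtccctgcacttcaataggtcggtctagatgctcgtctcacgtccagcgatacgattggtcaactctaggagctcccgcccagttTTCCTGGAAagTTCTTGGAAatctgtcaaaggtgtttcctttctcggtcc
Socs3: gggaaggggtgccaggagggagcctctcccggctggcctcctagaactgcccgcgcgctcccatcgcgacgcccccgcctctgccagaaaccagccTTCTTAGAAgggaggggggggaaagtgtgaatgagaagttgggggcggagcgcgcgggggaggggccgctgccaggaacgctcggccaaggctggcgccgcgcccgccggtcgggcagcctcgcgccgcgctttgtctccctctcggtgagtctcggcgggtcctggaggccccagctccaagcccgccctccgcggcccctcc
A match describes these letters only, and no binding was measured.

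Among the other STAT genes, Stat4, a factor of interleukin-12 signalling, was higher in LMPP than in GMP by 1.25 (limma adjusted p = 0.000324). Stat2, a partner in type I interferon signalling, was higher in LMPP than in GMP by 0.96 (limma adjusted p = 0.00586). Both were also higher in CLP than in GMP, Stat4 by 0.90 and Stat2 by 0.75 (limma adjusted p = 0.00258 and 0.0234). Stat6, the interleukin-4 factor, was called in none of the 3 comparisons.

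Among receptors of the common gamma chain, Il2rg, the shared chain itself, had 97.0, 127, 64.1 and 62.9 TPM in LMPP libraries, 69.96, 57.0, 39.5 and 46.7 TPM in CLP and 33.3, 36.9, 23.2 and 21.5 TPM in GMP. LMPP and CLP libraries both lay above all GMP libraries, but LMPP and CLP overlapped each other. Il2rg was higher in LMPP than in CLP by 0.68 (limma adjusted p = 0.0105) and than in GMP by 1.55 (limma adjusted p = 2.2e-05). CLP minus GMP was 0.87 (limma adjusted p = 0.000703). Il7r, which the CLP gate selects, had 10.1, 11.3, 6.00 and 5.14 TPM in LMPP libraries, 76.6, 130, 86.5 and 82.3 TPM in CLP and at most 0.30 TPM in GMP. It passed the filter through the 8 libraries of LMPP and CLP. Over the list, 3 of 7 tested genes were called in LMPP minus CLP, 3 in LMPP minus GMP and 4 in CLP minus GMP, beside 10%, 28.9% and 23.9% of all tested genes. Il15ra, a receptor chain for interleukin-15, was higher in LMPP than in CLP by 0.91 and lower in CLP than in GMP with a difference of -1.26 (limma adjusted p = 0.0398 and 0.00347). Il21r, the interleukin-21 receptor, was higher in LMPP than in GMP by 0.70 (limma adjusted p = 0.0228). Il2rb, the beta chain of the interleukin-2 and interleukin-15 receptors, was higher in CLP than in GMP by 1.25 (limma adjusted p = 0.0291). It reached 1 TPM in 5 libraries, of LMPP and CLP alone.

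The called receptors of the common beta chain were lower in LMPP and CLP than in GMP. Csf2rb, the shared chain for GM-CSF and interleukin-3, had 27.4, 20.3, 13.04 and 16.0 TPM in LMPP libraries, 19.2, 4.80, 13.7 and 9.04 TPM in CLP and 53.1, 57.6, 31.7 and 35.5 TPM in GMP. All GMP libraries were above all others. Csf2rb was lower in LMPP than in GMP, with a difference of -1.18 (limma adjusted p = 0.0207), and in CLP than in GMP, with -1.94 (limma adjusted p = 0.00145). Csf2ra, the GM-CSF binding chain, was lower in the same comparisons, at -1.14 and -1.30 (limma adjusted p = 0.0245 and 0.0151), and Il3ra, the interleukin-3 binding chain, only passed in CLP minus GMP, at -1.17 (limma adjusted p = 0.00862). In LMPP minus CLP limma called 0 of the 4 tested, beside 10% of all tested genes. Of the 4, 1 had an unadjusted p under 0.05, Csf2rb at 0.77.

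Of the homodimeric receptors, Csf3r, the G-CSF receptor, had 87.1, 64.7, 64.5 and 43.4 TPM in LMPP libraries, 29.5, 3.57, 3.65 and 10.4 TPM in CLP and 57.9, 67.0, 56.5 and 43.9 TPM in GMP. It was higher in LMPP than in CLP by 2.79 and lower in CLP than in GMP with -2.61 (limma adjusted p = 0.00401 and 0.00176). Its highest CLP value stood in CLP batch 2 replicate 1 and its highest LMPP value in LMPP batch 2 replicate 1. Both libraries were rich in neutrophil transcripts, whose part was not tested.

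In the gp130 and interleukin-12 family, Il11ra1 and Il12rb2 were higher in LMPP than in CLP, by 1.59 and 1.48 (limma adjusted p = 0.0453 and 0.0118). Against GMP, LMPP was higher in Il27ra by 1.60, in Il12rb1 by 1.34 and in Il12rb2 by 0.88 (limma adjusted p = 0.000784, 0.00188 and 0.0482). Il27ra reached 1 TPM in 8 libraries and Il12rb1 in 6, and both passed the filter through LMPP and CLP alone. Their highest GMP values were 0.85 and 0.29 TPM, and Il12rb1 had 1.68 to 2.23 TPM in LMPP, near the filter. CLP minus GMP was higher for Lifr, the leukaemia inhibitory factor receptor, by 1.51 and for Il27ra by 1.48 (limma adjusted p = 0.0436 and 0.00128). Lifr had 1.19 and 0.11 TPM in the CLP libraries of batch 2 and 6.17 and 3.9 TPM in those of batch 1. In GMP it had at most 0.12 TPM, and the 6 libraries in which it reached 1 TPM were of LMPP and CLP. CLP minus GMP was lower for Il11ra1 at -2.02 and for Il6ra, the interleukin-6 binding chain, at -1.83 (limma adjusted p = 0.00689 and 0.00442). Il6st, which encodes gp130 itself, was called in none, but CLP and GMP differed in opposite directions in the 2 batches. In batch 2 it had 18.6 and 12.2 TPM in CLP and 45.6 and 43.3 TPM in GMP. In batch 1 it had 53.9 and 59.7 TPM in CLP and 16.2 and 15.9 TPM in GMP. Of the interferon and interleukin-10 receptors, Ifngr1, a chain of the interferon gamma receptor, was lower in LMPP and in CLP than in GMP, at -1.62 and -1.86 (limma adjusted p = 6.0e-05 and 1.8e-05), and Il10ra was higher, by 1.06 and 1.08 (limma adjusted p = 0.00393 and 0.00381). Ifnar1 was higher by 0.54 and 0.51 in these comparisons (limma adjusted p = 0.0311 and 0.0467). Ifngr2 was lower in LMPP than in GMP at -0.67 (limma adjusted p = 0.0496), and Il10rb was higher in CLP than in GMP by 0.99 (limma adjusted p = 0.0355).

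**Figure D4:**
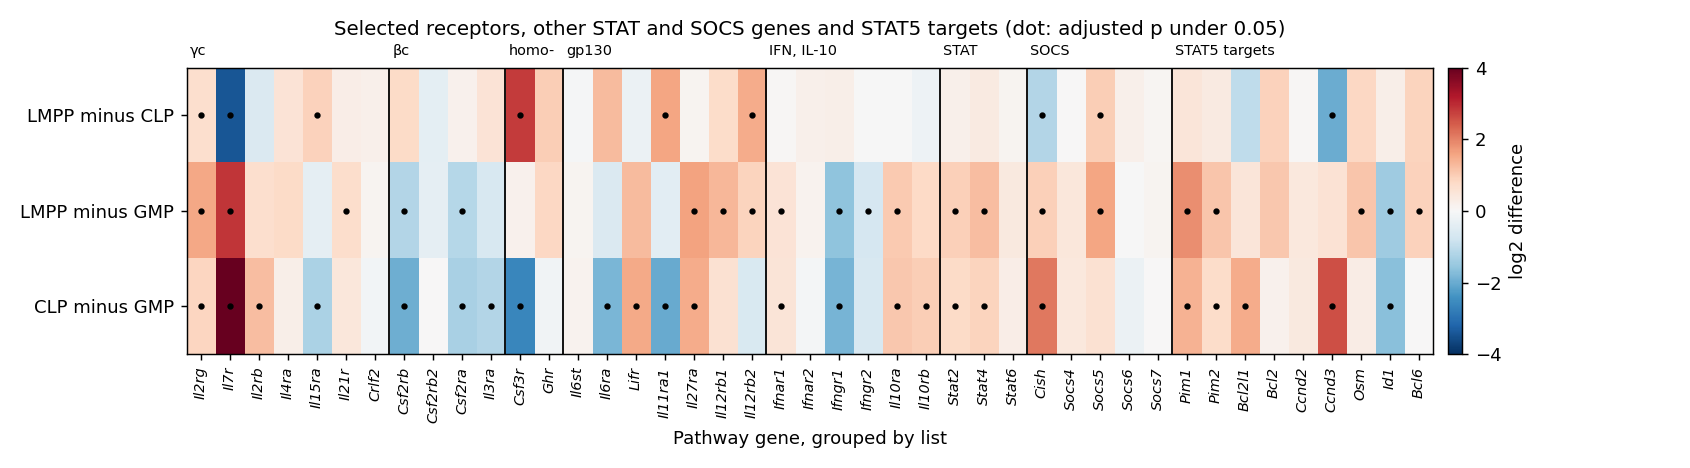
Differences of log2(TPM + 1) for selected receptors, other STAT and SOCS genes and STAT5 targets (columns, grouped by list) in the 3 comparisons of types (rows), with a dot where the limma adjusted p is under 0.05. The colour ends at 4 in either direction, which Il7r passes at 6.27 in CLP minus GMP.

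The list of STAT5 targets has 12 genes and includes Socs2 and Cish, and 11 were tested. Neither Socs2 nor Cish reached 1 TPM in a GMP library. In LMPP minus CLP 0 were higher and 3 lower, beside 7.23% higher and 2.8% lower of all tested genes. Both other comparisons called 6 higher and 1 lower, beside 21.3% higher and 7.62% lower of all tested genes in LMPP minus GMP and 13.9% and 9.96% in CLP minus GMP. Ccnd3, which encodes the cell cycle protein cyclin D3, had 58.2, 46.3, 40.7 and 42.8 TPM in LMPP libraries, 269, 326, 167 and 83.1 TPM in CLP and 32.9, 33.3, 29.6 and 27.0 TPM in GMP. The 3 types did not overlap. Ccnd3 was lower in LMPP than in CLP, with -1.98 (limma adjusted p = 0.000930), and higher in CLP than in GMP by 2.57 (limma adjusted p = 3.4e-05). Pim1, a survival kinase, was higher in LMPP and in CLP than in GMP, by 1.85 and 1.38 (limma adjusted p = 0.000435 and 0.00274). Pim2, a related kinase, was higher in LMPP than in GMP by 1.10 (limma adjusted p = 0.00586). Id1, an inhibitor of basic helix-loop-helix factors, was the gene called lower, at -1.43 and -1.68 (limma adjusted p = 0.00784 and 0.00349). Osm, which encodes oncostatin M, was higher in LMPP than in GMP by 1.12 (limma adjusted p = 0.0152).

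Of 8 tested STAT3 targets, limma called 2 in LMPP minus CLP, 3 in LMPP minus GMP and 3 in CLP minus GMP. The shares over all tested genes were 10%, 28.9% and 23.9% in that order. Fos, a subunit of the AP-1 factor, and Mcl1 were higher in LMPP than in CLP, by 2.43 and 0.47 (limma adjusted p = 0.00816 and 0.0367). Mcl1, a survival factor of the BCL2 family, was also higher in LMPP and in CLP than in GMP, by 0.99 and 0.52 (limma adjusted p = 0.000191 and 0.00974). Junb, another AP-1 subunit, was higher in LMPP than in GMP by 1.17 (limma adjusted p = 0.0245). Cebpd, a C/EBP factor of myeloid cells, was lower in both, at -1.52 and -2.28 (limma adjusted p = 0.00773 and 0.000691). Vegfa, a growth factor of blood vessels, was higher in CLP than in GMP by 0.93 (limma adjusted p = 0.0294).

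Among the regulators, Sh2b2, an adaptor of JAK2, was lower than in GMP in both LMPP and CLP, at -1.48 and -1.62 (limma adjusted p = 0.00430 and 0.00272). Sh2b3, the adaptor LNK that restrains JAK2, was lower in LMPP than in CLP at -0.55 and higher in CLP than in GMP by 0.85 (limma adjusted p = 0.0314 and 0.00118). Cblb, a ubiquitin ligase, was higher in CLP than in GMP by 0.83 (limma adjusted p = 0.0116), and Stam, an adaptor that binds JAK kinases, was higher in LMPP than in GMP by 0.84 (limma adjusted p = 0.0307). Of the 4 PIAS genes, Pias2 was higher in LMPP than in GMP by 0.49 (limma adjusted p = 0.0392), and no other was called. Besides Ptprc, whose product the B220 depletion targets, limma called 0 of the 4 other tested phosphatases in the 3 comparisons. Of these, 1, Ptpn6 in LMPP minus CLP, had an unadjusted p under 0.05. Over all tested genes the called shares were 10% in LMPP minus CLP, 28.9% in LMPP minus GMP and 23.9% in CLP minus GMP.

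Across the 12 libraries, which share their type and batch structure, the tested genes with a symbol whose log2(TPM + 1) was most like that of Socs2 were St6gal1, Bfsp2 and Drc7, with Pearson r of 0.99, 0.98 and 0.976. Their mean levels were 3.84, 6.75 and 4.37 TPM in LMPP libraries, 38.0, 219 and 21.4 TPM in CLP and 0.49, 0.73 and 0.90 TPM in GMP. The r of Socs2 with Il7r was 0.952, with Cish 0.914 and with Ccnd3 0.963, in each case over libraries that fall into the 3 types. For Jak3 the most like genes were Unc5a, Fmo1 and Ggt5, at 0.969, 0.969 and 0.967. For Stat3 they were Zfp182, Exoc8 and Dcaf5, at 0.955, 0.95 and 0.927. Jak1 with Jak2 gave 0.75.

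**Figure D5:**
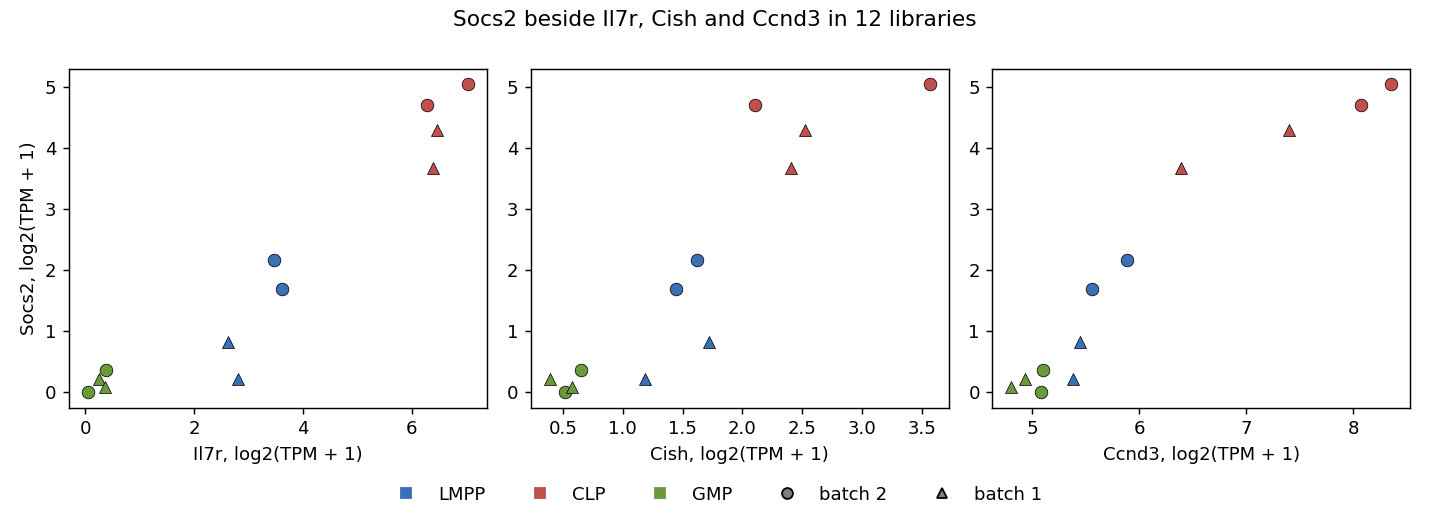
Socs2 (y axis) beside Il7r, Cish and Ccnd3 (x axes), all as log2(TPM + 1), with 1 point for each library, coloured by type and with circles for batch 2 and triangles for batch 1. The 4 CLP libraries stand at the upper right of each plot and the 4 GMP libraries at the lower left. LMPP lies between on each x axis, while on the y axis the LMPP libraries of batch 1 overlap GMP.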

How the data were processed

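The deposited table holds TPM, which the authors computed for each gene of 12 bulk libraries; the genome build mm10 and the programs RSEM 1.2.12, Bowtie2 2.2.0 and edgeR 3.10.0 are named per the submitters' processing notes, while their order and settings remain not given in the sources used here. TPM keeps no read depth, so no counting interval can be given, and precision rests on 4 libraries per type. The table's 17 other columns could not be matched by name and entered no step. Symbols were matched on Ensembl ID through GENCODE (37607 of 38924 IDs).

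The 12718 genes that reached 1 TPM in 4 or more libraries were fitted as log2(TPM + 1) with limma 3.58.1 in R 4.3.3, with type and batch as terms, a variance trend and 8 residual degrees of freedom. This scale understates the change of low genes. Batch differences within a type and interactions came from a fit of type by batch with 6 residual degrees of freedom. P-values were two-sided, with Benjamini-Hochberg adjustment across all tested genes. Shares were compared with exact permutation tests (scipy 1.17.1). The fit was tested on simulated data.

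The 10 genes, the pathway lists and the marker lists were chosen with earlier results of these data known. All 10 genes are named, and of each pathway list up to 4 called genes per comparison with the largest difference, and any member of a count of 5 or fewer. For the 3 of the 10 genes with the widest range of type means, the 3 most correlated tested genes with a symbol are named. Alternatives changed the pseudocount, filter, scaling, batch term and libraries. Another 2 were added after the data were seen. They took CLP batch 1 replicate 2 as the only CLP library, and batch 1 alone with the filter taken over 12 libraries. All alternatives were read for the 10 genes, the shares and the counts of all tested genes. Calls of single pathway genes were not checked under them. Replicate numbers are not described in the labels as marking a shared animal or day. Some genes of the pathway and marker lists are counted in the totals but not reported here by name.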

Additional observations from a re-analysis of the deposited data

Results flagged for a closer look

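Of 39 groups of 4 libraries examined (10 genes and 3 shares in 3 types), 4 held a library whose gap to its nearest neighbour exceeded Dixon's critical value for 4 samples, as a share of the range, with genes on the log2(TPM + 1) scale and shares in percent. Chance flags about 1 in 20 groups. Stat5b was lowest in GMP batch 1 replicate 2, at 7.42 TPM beside 9.92 to 10.49 TPM in the other GMP libraries, a gap of 0.836 of the range on the log2(TPM + 1) scale and of 0.814 on TPM itself, where it lies below the critical value. Socs1 was highest in LMPP batch 1 replicate 1, at 0.67 TPM beside 0.07 to 0.12 TPM. Socs3 was highest in CLP batch 2 replicate 2, at 1.11 TPM beside 0.64 to 0.70 TPM. Socs3 was also highest in GMP batch 1 replicate 1, at 0.16 TPM beside 0.02 to 0.03 TPM.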

How the results depend on the processing

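Read depth is unknown in TPM. Socs2 was called in LMPP minus CLP and in CLP minus GMP under each alternative that tested it; batch 1 alone with its own filter did not test it. The count of the 8 genes called in LMPP minus CLP was 1. It rose to 2 without both CLP libraries of batch 2, with array weights and in batch 1 alone with the filter over 12 libraries. Over all tested genes the calls were 1276 of 12718 in the main fit. They were 888 of 12406, 1430 of 12718 and 1192 of 12718 under these alternatives in that order. Leaving out 1 library gave 1 to 2 of the 8. In LMPP minus GMP the count was 4. It was 2 under quantile normalization, with no batch term, in batch 2 alone and with the replicate block. The calls over all tested genes fell as well, from 3676 of 12718 in the main fit. They were 3211 of 12718, 2358 of 12718, 1089 of 11330 and 2214 of 12718 in that order. With 1 library left out, 3 to 4 of the 8 were called. In CLP minus GMP it was 2, and 1 with no batch term, in batch 1 alone with either filter, without both CLP libraries of batch 2, without the haemoglobin-rich pair and with CLP batch 1 replicate 2 alone; leaving out 1 library gave 1 to 2. The CLP batch count was 3, and 2 to 4 with 1 library left out. The causes were not tested.

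The LMPP minus GMP call of Jak1 was lost with no batch term (0.88, limma adjusted p = 0.0698). That of Jak3 was lost under quantile normalization (0.79, limma adjusted p = 0.0563) and in batch 2 alone (1.28, limma adjusted p = 0.118), and that of Stat3 in batch 2 alone (1.13, limma adjusted p = 0.158). That of Socs2 was lost at pseudocount 5 (0.35, limma adjusted p = 0.140), with no filter (1.06, limma adjusted p = 0.0577), under quantile normalization (0.62, limma adjusted p = 0.141), with no batch term (1.06, limma adjusted p = 0.0851) and without the haemoglobin-rich pair (0.85, limma adjusted p = 0.0802). The CLP minus GMP call of Jak1 was lost with no batch term (limma adjusted p = 0.237) and without that pair (limma adjusted p = 0.0520), at differences of 0.60 and 0.57, beside 0.60 with all 12 libraries and the batch term. The Jak1 share of LMPP minus CLP turned to 3.83 percentage points without both CLP libraries of batch 2 and 2.56 in batch 1 alone, and ran from -4.97 to 0.58 with 1 library left out. The Socs2 share of LMPP minus GMP turned to -8.48 without the haemoglobin-rich pair and -15.1 in batch 1 alone, and ran from -11.02 to 13.1 with 1 library left out. With 3 against 4 libraries the exact test allows no p below 0.0571.

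Only differences that were not called changed sign. In LMPP minus CLP, Tyk2 was -0.12 in batch 1 alone with either filter, -0.21 without both CLP libraries of batch 2 and -0.028 with CLP batch 1 replicate 2 alone, and Jak1 was -0.073 in batch 2 alone. In LMPP minus GMP, Jak2 was -0.013 under median-ratio scaling, -0.0036 under quantile normalization and -0.037 in batch 2 alone, and Tyk2 was 0.035 in batch 1 alone with either filter. In CLP minus GMP, Tyk2 was 0.15 in batch 1 alone with either filter and 0.060 without both CLP libraries of batch 2, Jak3 was -0.031 in batch 2 alone, and Stat5b was -0.13 in batch 2 alone and ran from -0.016 to 0.29 with 1 library left out. Between CLP batches, leaving out 1 library gave -0.23 to 0.22 for Stat5a, -0.61 to 0.15 for Stat5b and -0.20 to 1.204 for Stat3.

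Residuals of same-numbered libraries correlated between -0.436 and 0.23. Residuals of this fit cancel out within each type and each batch, which lowers such correlations, and differently numbered libraries were not compared. Whether the numbers pair the libraries cannot be told from these values. With the replicate block, 1, 2 and 2 of the 8 genes were called in LMPP minus CLP, LMPP minus GMP and CLP minus GMP, and 212, 2214 and 2580 of all tested genes, beside 1276, 3676 and 3040 without it; the LMPP minus GMP calls lost were Jak3 (limma adjusted p = 0.0525) and Socs2 (0.104). These counts of all genes were also 609, 2358 and 1944 with no batch term. LMPP minus CLP gave 559 with only its 2 types, 177 with CLP batch 1 replicate 2 alone and 606 to 1470 with 1 library left out, LMPP minus GMP 1089 in batch 2 alone and 5815 with array weights, and CLP minus GMP 1772 in batch 2 alone and 1787 with that lone CLP library.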
